A study of Mus musculus with 6 samples.

Results

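The Zfp genes described here are mouse zinc finger protein genes that carry a Zfp name with a number. They were taken by rule as the autosomal protein-coding genes of GRCm38 (GENCODE M21) with such a symbol, without 1 gene that the rule left out, and with at least 50 raw counts in at least 3 of the 6 libraries. This gave 272 members of 357 candidate genes and of 46603 identifiers in each table. The values of these libraries chose the members through that minimum, and the set was proposed with earlier results of the same libraries known, so counts over the members are given as descriptions. Of the members, 233 had at least 50 counts in every library and 39 did not. Zfp871 and Zfp59 reached the minimum in no WT library and passed through the NM1 KO libraries alone, while 0 members passed through WT libraries alone. Just inside the minimum lay Zfp677, Zfp455 and Zfp52, whose 3rd highest counts were 51, 52 and 52, and just outside it lay Zfp108, Zfp286 and Zfp791 with 47, 47 and 48. The candidates below the minimum, 85 in all, are not described further.

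The libraries were made from visceral fat, the adipose depot inside the abdomen. There were 3 from NM1 KO mice and 3 from wild-type (WT) mice, all C57/Bl6, aged 18 months and given no treatment. NM1, nuclear myosin 1, is an isoform of the motor protein encoded by Myo1c that acts in transcription and chromatin organization. The sources used here do not give how the NM1 allele was made, the sex of the mice or whether each replicate was a separate animal, so the p-values reflect the spread among these libraries alone, which could be technical.

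Most Zfp proteins bind DNA through tandem C2H2 zinc fingers, short loops in which a pair of cysteines and a pair of histidines hold a zinc ion. Many also carry a KRAB domain, which recruits the co-repressor TRIM28 and through it the histone methyltransferase SETDB1, heterochromatin proteins and DNA methylation, and these KRAB zinc finger proteins are best known for silencing retroelements and guarding imprinted loci. Their genes arose by tandem duplication and lie in clusters that differ between mouse strains. Some Zfp genes encode zinc finger proteins that act on RNA, in ubiquitin transfer or in fat cell differentiation.

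The total counts were 31211682, 33537818 and 27525446 in NM1 KO replicates 1 to 3, against 26705606, 31228723 and 24677758 in WT replicates 1 to 3. The members held 0.475%, 0.391% and 0.435% of these counts in NM1 KO and 0.431%, 0.400% and 0.460% in WT. The fat cell genes Adipoq, Plin1, Lep, Cidec and Fabp4 lay at 1308 CPM or more in every library, where CPM is counts per 1e6 counts on library sizes scaled by TMM. Myo1c had 452, 697 and 551 CPM in NM1 KO against 801, 759 and 801 CPM in WT (log2 fold change -0.47 ± 0.17, SE, adjusted p = 0.151). Its count adds up all isoforms and therefore gives no check of the loss of NM1. In bulk tissue, fewer cells of a type and less RNA per cell cannot be told apart.

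Set against WT, 5 of the 272 members were called in NM1 KO at an adjusted p under 0.05 by edgeR's quasi-likelihood test, with adjustment over all 15828 genes tested. This was 1.84% of the members, beside 4.25% of all genes tested. Zfp871, Zfp445 and Zfp507 rose and Zfp692 and Zfp579 fell, so that 3 members were called higher, beside 2.79% of all genes, and 2 lower, beside 1.47%. At an unadjusted p under 0.05 stood 37 members, 21 higher and 16 lower in NM1 KO, which was 13.6% of them against 23.7% of all genes tested. The CPM ranges of the groups lay apart for 49 members (24 higher and 25 lower), 18.0% of them against 29.9% of all genes. The median log2 fold change of the members was 0.066, with 160 of 272 positive, beside a median of -0.0021 and 49.7% positive over all genes. A fit whose offset carried the trend of each library on GC and exonic length gave a member median of -0.015, with all genes at -0.036. It called 4 members (Zfp871, Zfp445, Zfp692 and Zfp970), beside 4.59% of all genes. Without NM1 KO replicate 1 the member median was -0.0062 and 1 member was called, 0.368% of them against 1.51% of all genes. Without NM1 KO replicate 2 there were 14 called higher and 4 lower, 6.62% of the members against 10.2% of all genes. Without NM1 KO replicate 3, or any single WT library, edgeR called 0 members and 1 to 37 of all genes. In these 4 fits 8.46% to 10.7% of the members stood at an unadjusted p under 0.05, against 17.6% to 20.1% of all genes.

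**Figure D1:**
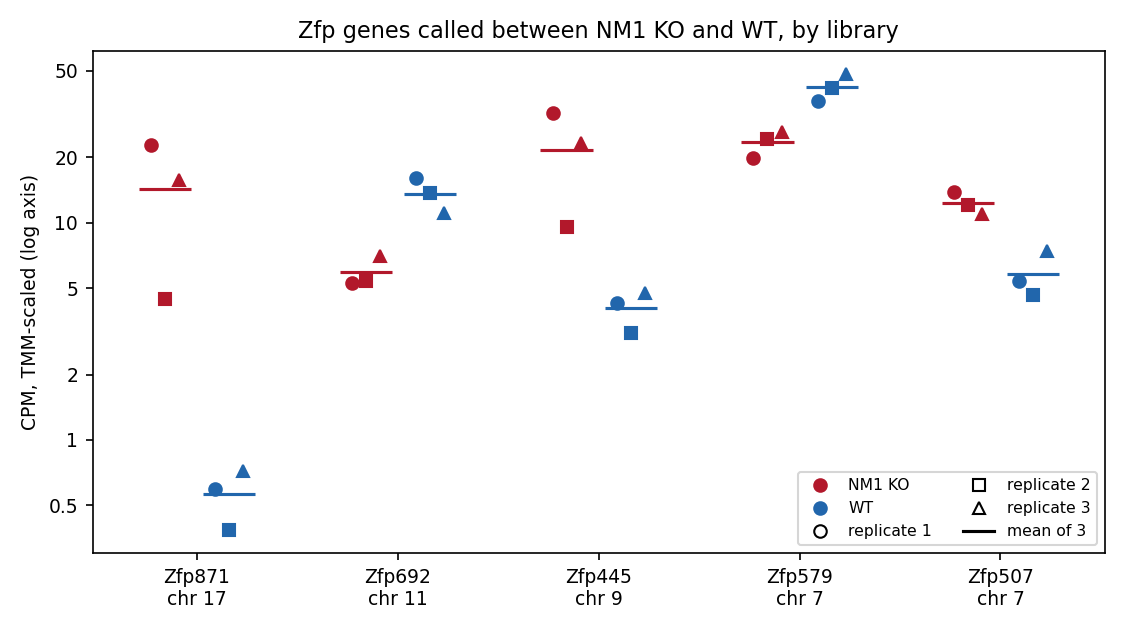
CPM (vertical log axis) of the 5 called Zfp genes in each library, with NM1 KO in red left of WT in blue, markers for replicates 1 to 3 and a bar at the mean of 3. The groups do not overlap for any of the 5, and NM1 KO replicate 2 is the lowest NM1 KO library for Zfp871 and Zfp445.

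The widest gap among the members was that of Zfp871 (ENSMUSG00000024298, chromosome 17, 32765496 to 32788287 on GRCm38), whose longest reading frame holds 15 zinc fingers. The gene also had a KRAB-like stretch in its reading frames. It had 705, 146 and 430 raw counts in NM1 KO replicates 1 to 3, against 16, 12 and 18 in WT. This corresponds to 22.7, 4.46 and 15.7 CPM in NM1 KO against 0.592, 0.384 and 0.721 CPM in WT. Every NM1 KO library was above every WT library, and within NM1 KO replicate 1 was 5.09 times as high as replicate 2. The log2 fold change was 4.66 ± 0.65 (SE, n = 3 each, adjusted p = 0.0217), which is a description, since the minimum admitted the gene through its NM1 KO counts. The adjusted p was 0.0668 without NM1 KO replicate 3, and 0.0754, 0.0773 and 0.0946 without WT replicates 1 to 3. It was called in each of the 12 alternatives that kept all libraries.

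Zfp445 (ENSMUSG00000047036, chromosome 9, 122844529 to 122866006) encodes a KRAB zinc finger protein that, together with ZFP57, keeps DNA methylation at imprinted loci. It had 31.8, 9.58 and 23.2 CPM in NM1 KO against 4.29, 3.10 and 4.73 CPM in WT. The groups lay apart, with NM1 KO replicate 2 the nearest to WT. Its log2 fold change was 2.42 ± 0.44 (adjusted p = 0.0342). Zfp445 overlaps Gm47140 on the same strand. The called members, Zfp445 among them, shared at most 0.25% of their short sequence windows with another annotated gene. Whether reads of Gm47140 entered the counts of Zfp445 was not tested.

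Zfp507 (ENSMUSG00000044452, chromosome 7, 35772343 to 35803003) codes for a protein with 9 fingers and no KRAB-like stretch. It had 13.8, 12.1 and 11 CPM in NM1 KO against 5.40, 4.63 and 7.37 CPM in WT, with a log2 fold change of 1.09 ± 0.22 (adjusted p = 0.0420). The NM1 KO libraries were close to each other and all above WT. The gene overlaps Gm26790 and E130304I02Rik on the other strand, and whether the counting used strand is unknown here, so its level is uncertain. With the GC and length offset it was not called (log2 fold change 0.87).

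Zfp692 (ENSMUSG00000037243, chromosome 11, 58307069 to 58314627), whose human homologue is known as the AICAR response element binding protein, had 5.28, 5.40 and 7.03 CPM in NM1 KO against 16.0, 13.7 and 11.1 CPM in WT. All NM1 KO libraries were below all WT libraries, with a log2 fold change of -1.20 ± 0.21 (adjusted p = 0.0307). Zfp579 (ENSMUSG00000051550, chromosome 7, 4983483 to 4996158), which encodes 8 fingers, had 19.8, 24.4 and 26.1 CPM in NM1 KO against 36.4, 41.7 and 48.5 CPM in WT. It too was lower in every NM1 KO library, at a log2 fold change of -0.85 ± 0.16 (adjusted p = 0.0342). The offset for GC and length ended its call, at a log2 fold change of -0.69. Zfp692, Zfp445, Zfp579 and Zfp507 were each called in 1 of the 6 fits that left out a library, the one without NM1 KO replicate 2, and Zfp871 in 2 of 6.

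Genes around the called members were themselves called at shares between 0 and 18.2%. Within 1 Mb of Zfp871, 1 of 35 tested neighbours was called (Myo1f, higher), and within 1 Mb of Zfp445 0 of 31 were called. Around Zfp507 1 of 16 was called and around Zfp579 3 of 38. The neighbours of Zfp692 included 6 called genes of 33, 2 higher and 4 lower, which is 18.2% beside 4.25% of all genes.

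The promoters of the 5 called members are shown to set the gene starts side by side, as RefSeq gives them for GRCm38.p6, from 250 bases before to 50 bases after the start, read 5′ to 3′ on the gene's strand. Capitals mark matches on either strand. The letters searched were GGGCGG for the GC box that Sp1 proteins bind, CCAAT for the box that NF-Y binds, CTTCCG for the core that ETS factors bind, GCCATNTT for the core that YY1 binds, and TATAAA for the TATA box. The intervals are chr17:32788238-32788537 on the minus strand for Zfp871, chr9:122865957-122866256 on the minus strand for Zfp445, chr7:35802940-35803239 on the minus strand for Zfp507, chr11:58306819-58307118 on the plus strand for Zfp692 and chr7:4996052-4996351 on the minus strand for Zfp579.
Zfp871: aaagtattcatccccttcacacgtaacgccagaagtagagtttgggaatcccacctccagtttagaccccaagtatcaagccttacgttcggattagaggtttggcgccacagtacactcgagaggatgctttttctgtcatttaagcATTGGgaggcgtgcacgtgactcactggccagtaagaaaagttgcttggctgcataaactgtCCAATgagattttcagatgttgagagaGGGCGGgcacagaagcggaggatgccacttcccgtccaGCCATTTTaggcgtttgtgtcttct
Zfp445: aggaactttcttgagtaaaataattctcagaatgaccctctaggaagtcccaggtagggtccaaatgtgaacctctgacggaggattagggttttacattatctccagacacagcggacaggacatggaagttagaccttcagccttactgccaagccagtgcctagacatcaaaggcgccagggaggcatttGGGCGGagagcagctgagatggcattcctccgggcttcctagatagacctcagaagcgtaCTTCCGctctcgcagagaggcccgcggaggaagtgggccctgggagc
Zfp507: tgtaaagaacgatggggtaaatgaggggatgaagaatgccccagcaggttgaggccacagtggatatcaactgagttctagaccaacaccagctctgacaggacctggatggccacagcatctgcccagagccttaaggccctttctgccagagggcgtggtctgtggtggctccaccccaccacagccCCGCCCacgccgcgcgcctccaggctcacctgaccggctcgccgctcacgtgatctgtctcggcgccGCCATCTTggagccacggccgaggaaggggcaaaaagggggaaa
Zfp692: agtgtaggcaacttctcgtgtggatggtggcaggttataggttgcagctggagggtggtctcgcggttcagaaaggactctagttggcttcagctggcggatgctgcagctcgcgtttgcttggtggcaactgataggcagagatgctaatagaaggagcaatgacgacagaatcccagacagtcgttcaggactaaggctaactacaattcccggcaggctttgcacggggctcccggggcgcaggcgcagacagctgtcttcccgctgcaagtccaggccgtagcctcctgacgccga
Zfp579: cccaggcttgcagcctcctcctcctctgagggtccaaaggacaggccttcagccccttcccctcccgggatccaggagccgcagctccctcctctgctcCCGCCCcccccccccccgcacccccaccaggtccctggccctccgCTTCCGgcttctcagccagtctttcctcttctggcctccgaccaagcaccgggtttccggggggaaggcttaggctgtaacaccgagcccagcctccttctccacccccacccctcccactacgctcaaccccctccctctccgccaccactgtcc
Zfp871 held 1 GC box, 2 CCAAT boxes and 1 YY1 core, Zfp507 held 1 GC box and 1 YY1 core, and Zfp445 and Zfp579 each held 1 GC box and 1 ETS core. The Zfp692 window held none of these letters. Of the 272 members, 226 had a promoter in the table. A GC box was present in 47.8% of these against 35.9% of all 27025 promoters, a CCAAT box in 47.3% against 37.9%, an ETS core in 37.2% against 17.2%, a YY1 core in 13.7% against 6.23%, and a TATA box in 6.19% against 14.2%. These are matches of letters and not binding sites. The members had passed a minimum of counts in these libraries, and the 27025 promoters were not limited in that way. The sets are therefore unlike, and whether the shares differ among genes of like level was not tested.

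The members next in order of p did not pass the adjusted threshold. Of those with a positive fold change, Zfp169 on chromosome 13 had 4.25, 4.64 and 3.21 CPM in NM1 KO against 2.11, 1.69 and 1.64 CPM in WT (log2 fold change 1.15 ± 0.27, adjusted p = 0.0607). Zfp84 on chromosome 7 had 15.4, 12.5 and 15.7 CPM in NM1 KO against 8.84, 7.16 and 9.82 CPM in WT (0.76 ± 0.18, adjusted p = 0.0638). Zfp106, an RNA-binding protein that motor neurons and muscle need in mice, had 225, 159 and 189 CPM in NM1 KO against 135, 128 and 129 CPM in WT (0.55 ± 0.14, adjusted p = 0.0698). The ranges of each lay apart. The other members with the smallest p and a positive fold change were Zfp799, Zfp704, Zfp318 and Zfp91, with log2 fold changes of 0.60, 0.67, 0.72 and 0.38 and adjusted p between 0.0884 and 0.117. Zfp318 is known as a regulator of IgD expression in B cells, and Zfp91 as a ubiquitin ligase.

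Among members with a negative fold change, Zfp703, a co-repressor of the NET family, had 79.4, 87.2 and 81.0 CPM in NM1 KO against 107, 126 and 109.8 CPM in WT (-0.47 ± 0.10, adjusted p = 0.0554). Zfp366, a dendritic cell protein also called DC-SCRIPT, had 1.09, 1.68 and 2.08 CPM in NM1 KO against 5.03, 3.68 and 2.81 CPM in WT (-1.25 ± 0.36, adjusted p = 0.0936). Zfp335, a component of a histone H3 lysine methyltransferase complex, had 14.2, 15.2 and 11.7 CPM in NM1 KO against 18.6, 21.0 and 19.6 CPM in WT (-0.53 ± 0.15, adjusted p = 0.0880). No NM1 KO library of these genes reached a WT library. Zfp653, Zfp598, Zfp672, Zfp956 and Zfp408 completed the list, with log2 fold changes of -0.59, -0.56, -0.49, -0.57 and -0.41 and adjusted p between 0.0990 and 0.134. Zfp598 is the ubiquitin ligase that marks stalled ribosomes. In all, 8 members changed by more than 2-fold in either direction in the fit, of which Zfp169, Zfp366, Zfp26 and Zfp52 were not called, and Zfp26 and Zfp52 overlapped between groups.

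The members lay on all 19 autosomes, with 68 on chromosome 7, 37 on chromosome 17, 19 on chromosome 8 and 18 on chromosome 13. The medians of the log2 fold change differed between chromosomes. Of the 12 chromosomes with at least 8 members, chromosome 4 had a median of 0.38 (10 of 14 positive), chromosome 17 of 0.31 (26 of 37), chromosome 13 of 0.27 (15 of 18), chromosome 18 of 0.22 (7 of 10) and chromosome 5 of 0.16 (9 of 15). All tested genes of these chromosomes had medians of -0.011 on chromosome 4, -0.074 on chromosome 17, 0.12 on chromosome 13, 0.082 on chromosome 18 and -0.042 on chromosome 5. The members of chromosome 6 had a median of -0.12 (5 of 15 positive), while those of chromosomes 2, 7, 8, 9, 11 and 15 lay between -0.066 and 0.054. The median on chromosome 7 was 0.018, but -0.018 with upper-quartile size factors and -0.0090 with library totals alone. It was also negative with the replicate number as a block, with limma-voom and with the GC and length offset. Without NM1 KO replicate 1 it was -0.0040, and without WT replicate 2 it was -0.083.

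Of these 12 chromosomes, 4 had a called member: chromosome 7 had Zfp507 and Zfp579, chromosome 9 had Zfp445, chromosome 11 had Zfp692 and chromosome 17 had Zfp871. On chromosome 4, edgeR called 0 of 14 members, with 1 at an unadjusted p under 0.05 (Zfp618, 5.66, 4.85 and 3.97 CPM in NM1 KO against 2.96, 1.60 and 3.21 CPM in WT). This was 7.14% of the 14, beside 23.7% of all genes tested. The smallest p on chromosome 18 was that of Zfp608, with 15.8, 16.7 and 12.5 CPM in NM1 KO against 10.9, 9.56 and 10.9 CPM in WT (0.52 ± 0.17, adjusted p = 0.118), and on chromosome 15 that of Zfp41, with 4.31, 5.86 and 3.94 CPM in NM1 KO against 3.00, 3.20 and 2.85 CPM in WT (0.64 ± 0.24, adjusted p = 0.170). The ranges of both lay apart. On chromosome 13, edgeR called 0 of 18 members and 3 stood at an unadjusted p under 0.05, 2 of them higher. These 3 were 16.7% of the 18, again beside 23.7% of all genes tested. DESeq2 called 21 of the 272 members and limma-voom 15, where they called 14.2% and 10.4% of all genes.

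**Figure D2:**
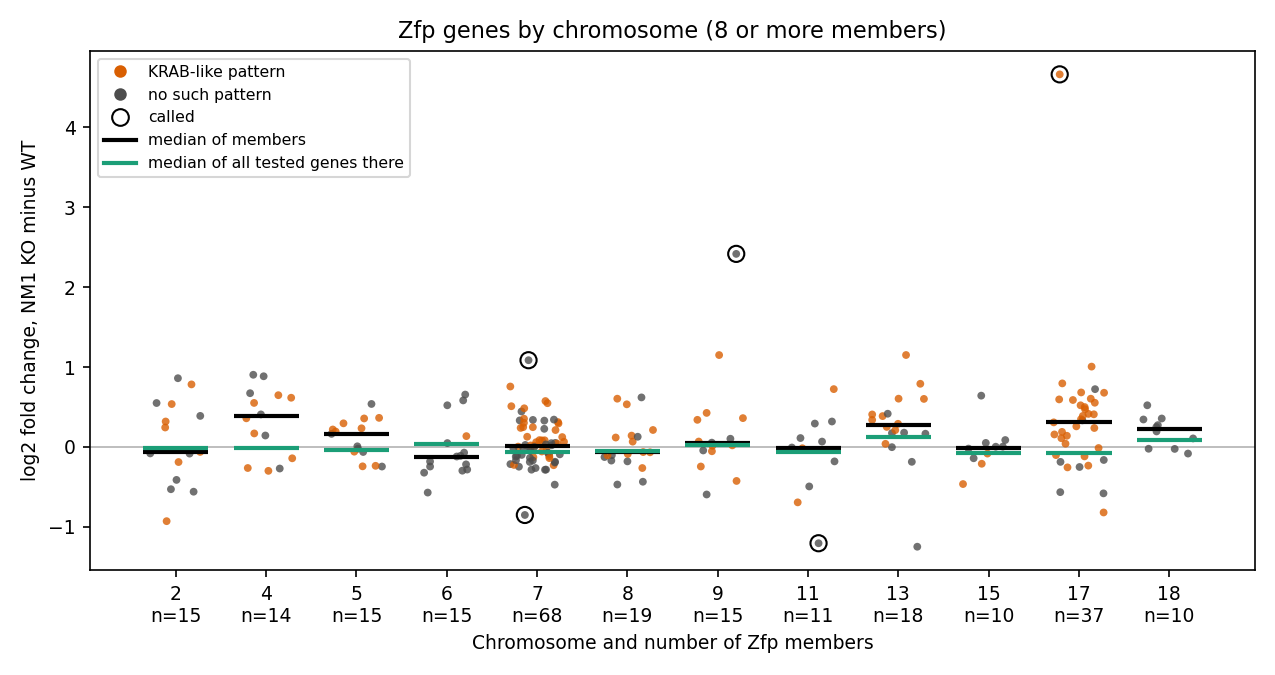
Log2 fold change (NM1 KO minus WT, vertical axis) of each Zfp gene on the 12 chromosomes with at least 8 members; orange points have a KRAB-like stretch, grey points do not, rings mark called members, and bars give the median of the members (black) and of all tested genes of that chromosome (green). The black bars on chromosomes 4, 13 and 17 stand at 0.38, 0.27 and 0.31, above the green bars, and 1 point, Zfp871, lies at 4.66.

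The medians of chromosomes 17, 4 and 13 moved with single NM1 KO libraries. When NM1 KO replicate 1 was left out, the median became -0.21 on chromosome 17, -0.026 on chromosome 4 and 0.038 on chromosome 13. When NM1 KO replicate 2 was left out, the medians were 0.63, 0.47 and 0.57 on chromosomes 17, 4 and 13. Without WT replicate 2 they were 0.19 on chromosome 17 and 0.17 on chromosome 13, and on chromosome 5 the median was 0.056 without NM1 KO replicate 1 and 0.068 without WT replicate 2. With the trend of each library on GC and length removed, the medians were 0.041 on chromosome 17, 0.25 on chromosome 4, 0.077 on chromosome 13, -0.033 on chromosome 5 and -0.012 on chromosome 18. The members of chromosomes 17 and 13 were rich in AT, with median GC contents of 39.6% and 39.9%.

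Within NM1 KO, replicates 1 and 2 differed widely over these genes. A ratio of 2 single libraries spreads more than a contrast of groups of 3, so the 2 are not on the same scale. The CPM of replicate 1 was more than 2-fold that of replicate 2 for 79 members, 29.0% of them against 10.6% of all genes tested, and more than 2-fold lower for 0. Of the 79, 59 carried a KRAB-like stretch. Between WT replicates 1 and 2, 12 members differed by more than 2-fold. These pairs are not alike. The members' median log2 differences from the mean of 6 libraries were 0.16, -0.12 and 0.056 in NM1 KO replicates 1 to 3. In WT replicates 1 to 3 they were -0.025, -0.13 and 0.085. The NM1 KO pair was thus the widest of its genotype by this median, and the WT pair was not. NM1 KO replicate 1 held the highest and NM1 KO replicate 2 the lowest CPM of the 6 libraries for 73 members, 26.8% of them, against 6.39% of all genes tested. The widest ratios were those of Zfp937 on chromosome 2, with 3.64, 0.397 and 2.66 CPM in NM1 KO against 0.850, 1.98 and 1.76 CPM in WT, and Zfp930 on chromosome 8, with 4.96, 0.610 and 2.44 CPM in NM1 KO against 2.22, 1.60 and 1.44 CPM in WT. For both genes the WT libraries lay between NM1 KO replicates 1 and 2. The smallest ratio was that of Zfp57, 0.564.

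The genes were then grouped by position, with neighbouring Zfp starts within 500 kb joined, which gave 24 groups of at least 3 members that held 152 members in all. The largest, from Zfp160 to Zfp13 on chromosome 17, held 22 members, 19 of them with a KRAB-like stretch. The median of their log2 differences from the mean of 6 libraries was 1.01, -0.72 and -0.056 in NM1 KO replicates 1 to 3, against -0.014, -0.31 and 0.15 in WT replicates 1 to 3. With the trend on GC and length removed these values were 0.52, -0.28 and -0.19 in NM1 KO against 0.051, -0.16 and 0.14 in WT. Replicate 1 was above replicate 2 of NM1 KO for 21 of the 22, with a median ratio of 3.83, and the WT libraries lay between them. For 17 of the 22, NM1 KO replicate 1 was the highest and NM1 KO replicate 2 the lowest of all libraries. In this group 16 of 22 fold changes were positive, with a median of 0.36. Both edgeR and DESeq2 called 0, where they called 4.25% and 14.2% of all genes. At an unadjusted p under 0.05 stood 1 (Zfp13, lower), 4.55% of the group beside 23.7% of all genes. Without NM1 KO replicate 1 the median was -0.34 with 4 positive, and without NM1 KO replicate 2 it was 0.68 with 19 positive; without WT replicate 2 it was 0.21.

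Single genes of that group show the same order. Zfp229 had 8.08, 1.13 and 4.66 CPM in NM1 KO against 4.03, 3.64 and 5.81 CPM in WT, and Zfp942 had 12.6, 2.11 and 5.43 CPM in NM1 KO against 4.66, 3.20 and 4.69 CPM in WT. The last members of the group, Zfp213 and Zfp13, have GC contents of 59.5% and 59.1% against a group median of 38.4%. Zfp13 ran the other way, with 4.12, 6.81 and 4.88 CPM in NM1 KO against 7.62, 7.06 and 8.98 CPM in WT. Zfp229, Zfp942 and Zfp13 were chosen after their values were seen.

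The second group on chromosome 17, from Zfp871 to Zfp414, held 10 members. Of these, 9 had positive fold changes, beside 49.7% of all genes tested. At an unadjusted p under 0.05 stood 3 (Zfp871, Zfp799 and Zfp563), 30% of the group beside 23.7% of all genes. Zfp871 had passed the count minimum through the NM1 KO libraries alone. The gene nearest to Zfp871 among the members, Zfp799, had 8.21, 7.81 and 8.64 CPM in NM1 KO against 5.51, 5.02 and 5.69 CPM in WT (0.60 ± 0.17, adjusted p = 0.0884). Zfp563 had 3.60, 2.69 and 4.45 CPM in NM1 KO against 2.03, 1.47 and 2.68 CPM in WT (0.80 ± 0.33, adjusted p = 0.202). Both lay apart between the groups, and neither came near the log2 fold change of Zfp871. Zfp870, which lies between them, had 7.98, 7.54 and 9.0 CPM in NM1 KO against 7.28, 6.23 and 8.74 CPM in WT, with overlapping ranges. The group's median log2 fold change was 0.30, and 0.028 with the GC and length offset. Leaving out replicates 1, 2 and 3 of NM1 KO in turn gave medians of 0.19, 0.66 and 0.083, and leaving out WT replicate 1 gave 0.17.

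**Figure D3:**
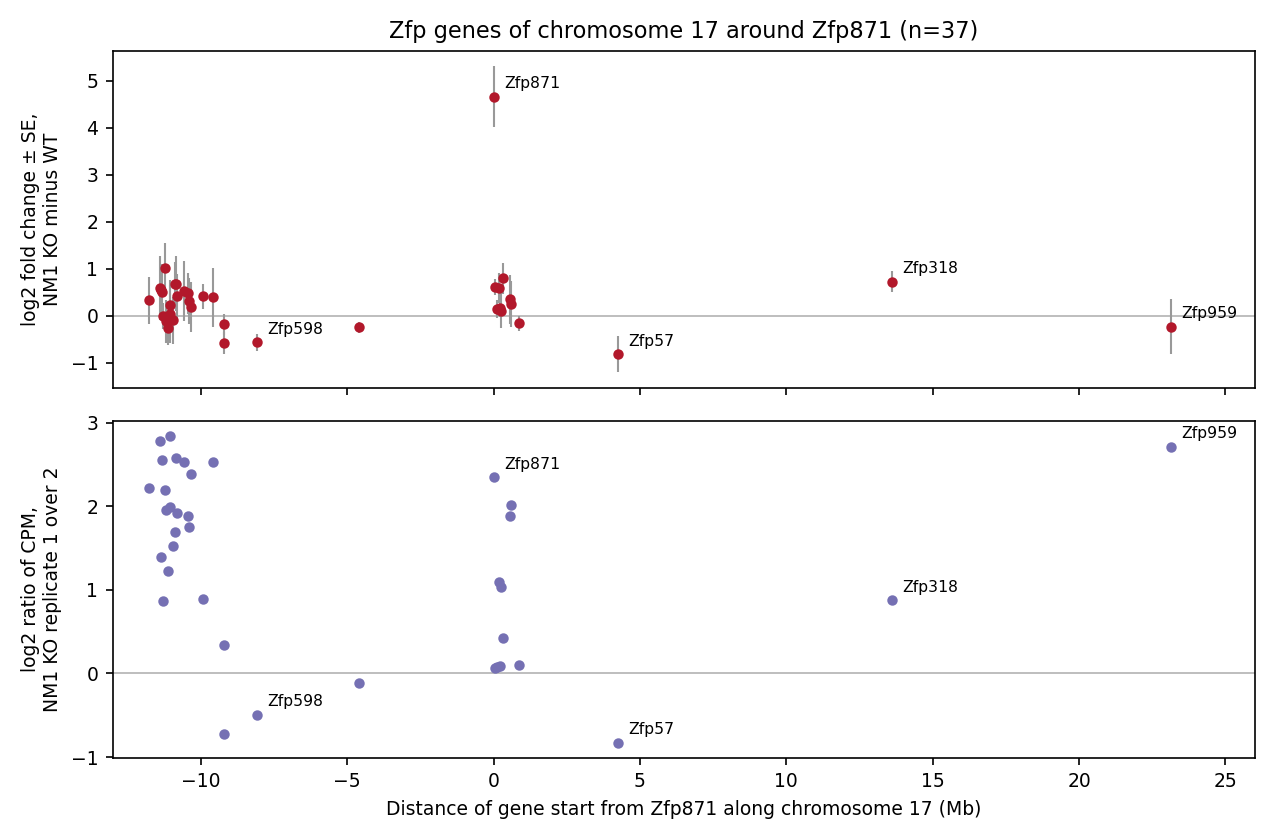
The 37 Zfp genes of chromosome 17 by distance of their starts from Zfp871 (Mb, horizontal axis), with the log2 fold change ± SE (NM1 KO minus WT, top) and the log2 ratio of CPM of NM1 KO replicate 1 over replicate 2 (bottom). Zfp871 stands alone at 4.66 in the top panel, while in the bottom panel most genes of the Zfp160 to Zfp13 group lie above 1.

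AT-rich groups of chromosomes 4 and 13 had the same order of NM1 KO libraries. The Zfp992 to Zfp933 group of chromosome 4, with 5 of 18 annotated genes reaching the minimum, had median log2 differences of 1.34, -0.99 and -0.17 in NM1 KO against -0.14, -0.064 and 0.048 in WT. Zfp992 had 10.4, 1.37 and 3.17 CPM in NM1 KO against 3.11, 3.04 and 3.61 CPM in WT. The Zfp455 to Zfp273 group of chromosome 13, with 11 of 19 annotated genes reaching the minimum, had 0.64, -0.68 and 0.36 in NM1 KO against -0.063, -0.24 and 0.094 in WT. All 11 were higher in NM1 KO replicate 1 than in replicate 2, and 10 of 11 had positive fold changes with a median of 0.34. Both edgeR and DESeq2 called 0, with 0 at an unadjusted p under 0.05. Over all genes these shares were 4.25%, 14.2% and 23.7%. The median of the chromosome 13 group was 0.058, 0.65 and 0.21 when replicates 1, 2 and 3 of NM1 KO were left out in turn, and 0.22 when WT replicate 2 was.

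In 3 groups of higher GC content the NM1 KO libraries lay closer together. The 12 members from Zfp84 to Zfp146 on chromosome 7 (GC 46.7%) had a median log2 fold change of 0.24 with 9 positive. Of these 12, edgeR called 0 and DESeq2 called 1 (Zfp84). At an unadjusted p under 0.05 stood 2 (Zfp84 and Zfp568), 16.7% of the 12 members beside 23.7% of all genes. The median was 0.10 with the GC and length offset and 0.11 without NM1 KO replicate 3. Their median log2 differences were 0.31, -0.030 and 0.26 in NM1 KO against -0.20, -0.17 and 0.052 in WT. The 6 members from Zfp628 to Zfp580 on chromosome 7 (GC 61.2%), which include Zfp579, had a median log2 fold change of -0.24 with 1 positive, and the 8 from Zfp398 to Zfp775 on chromosome 6 (GC 55.8%) had -0.11 with 2 positive. With the GC and length offset these medians were -0.038 for Zfp628 to Zfp580 and -0.014 for Zfp398 to Zfp775, and leaving out replicates 2 and 3 of NM1 KO in turn gave -0.19 and -0.065 for Zfp398 to Zfp775. The ratio of NM1 KO replicate 1 to replicate 2 had medians of 0.893 and 0.958 in these groups.

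**Figure D4:**
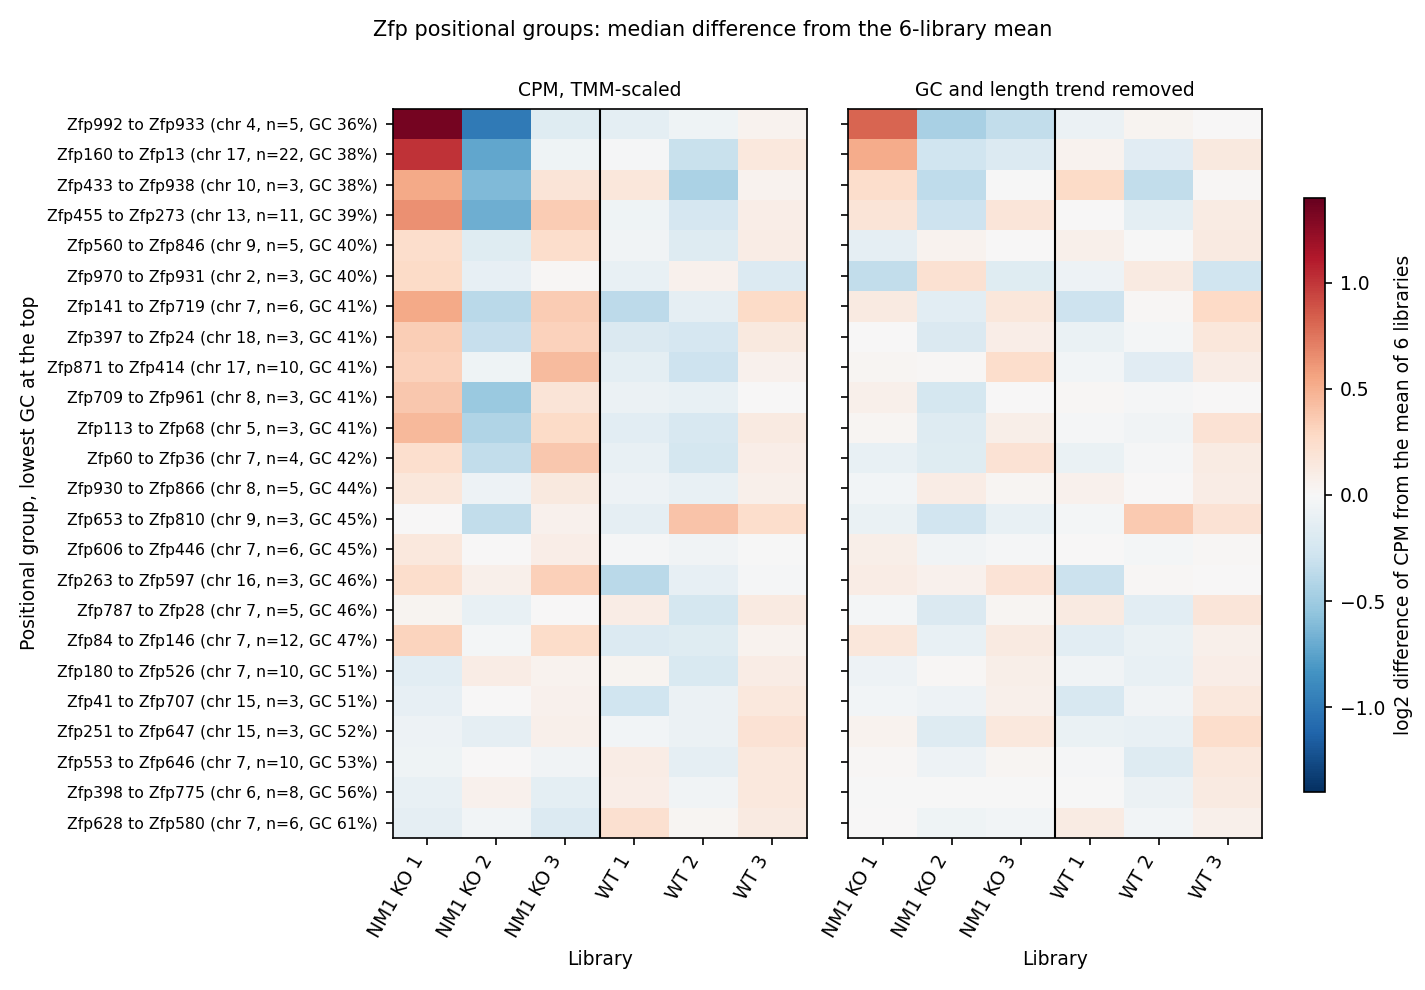
Median log2 difference of CPM from the mean of 6 libraries (colour scale) for each of 24 positional groups of Zfp genes (rows, lowest GC content at the top) in each library (columns, NM1 KO left of WT), before (left) and after (right) the trend of each library on GC and length was removed. The top rows are highest in NM1 KO replicate 1 and lowest in NM1 KO replicate 2, at 1.34 and -0.99 in the first row, and the colours are paler in the right panel.

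A KRAB-like stretch was found in the reading frames of 129 members and not in the other 143. The pattern searched misses diverged KRAB boxes such as that of Zfp445, so the 143 are not a set free of KRAB genes. The members with the stretch had a median log2 fold change of 0.21, with 72.1% positive, and those without it -0.012, with 46.9% positive. The KRAB-like members also had lower GC content, 41.2% against 50%, and a median ratio of NM1 KO replicate 1 to replicate 2 of 1.85 against 0.967. Split at a GC content of 45%, the 96 AT-rich KRAB-like members had a median of 0.25 and the 33 others -0.053, while among members without the stretch the 43 AT-rich ones had 0.18 and the 100 others -0.081. All AT-rich protein-coding genes tested had a median of 0.21, and all others -0.053. Leaving out NM1 KO replicate 1 put the median of the KRAB-like members at -0.020, and leaving out NM1 KO replicate 2 put it at 0.41. It was 0.13 without WT replicate 2. With the GC and length offset it was 0.018, against -0.028 for the members without the stretch.

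Across the 272 members, the log2 fold change was lower at higher GC content, with Spearman's rho of -0.549, and across 13933 protein-coding genes rho was -0.374. With the offset, rho was -0.158 over the members. Genes share libraries and are not independent replicates, so these values are descriptions. The offset removes each library's trend on GC, so a weaker rho with it was largely set in advance. It was fitted without regard to genotype, so a group difference that follows GC would be removed with it. Within single libraries, the difference of the members from the mean of 6 libraries had a rho with GC content of -0.741, 0.646 and -0.503 in NM1 KO replicates 1 to 3, and 0.384, 0.341 and 0.0790 in WT replicates 1 to 3. Over the protein-coding genes it was -0.437, 0.246 and -0.466 in NM1 KO and 0.359, 0.263 and 0.147 in WT. The sign in each library was that of the members, so the trend was not particular to Zfp genes. NM1 KO replicates 1 and 3 thus ran against NM1 KO replicate 2 in this respect. The part of GC content in the fold changes of single members was not tested.

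**Figure D5:**
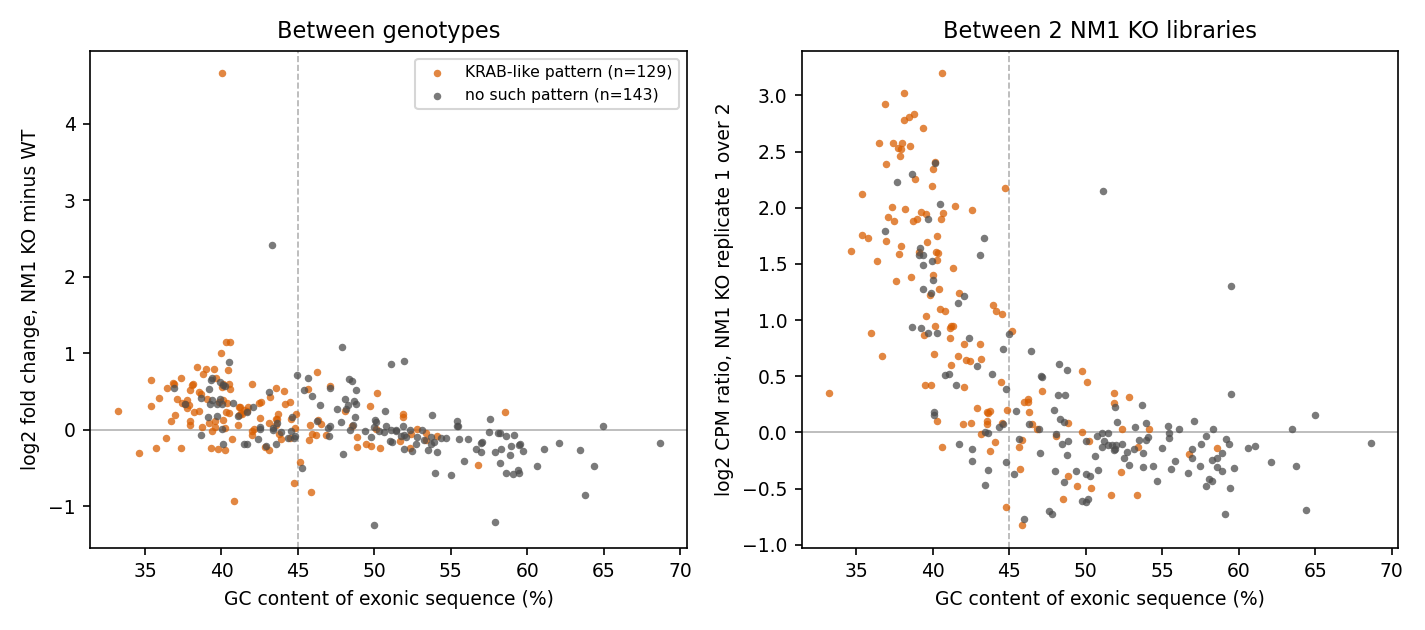
Exonic GC content of each Zfp gene, taken from its longest transcript (horizontal axis, %), against its log2 fold change between NM1 KO and WT (left) and its log2 ratio of CPM between NM1 KO replicates 1 and 2 (right). KRAB-like members are orange, the others are grey, and a dashed line marks 45%. The ratio within NM1 KO is above 0 for most genes left of the line, where the 96 KRAB-like members have a median ratio of 2.62.

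In the longest reading frame, 266 members had at least 1 C2H2 finger, with a median of 10 and a maximum of 36. The KRAB-like members had a median of 12 fingers and the others 8. Zfp36, Zfp703, Zfp330, Zfp365, Zfp839 and Zfp503 had 0 by this pattern, and Zfp36, tristetraprolin, is known to have fingers of another type, with which it binds AU-rich messenger RNA and speeds its decay. Per kb of exon, the members were low, with a median level of 1.73 CPM per kb against 5.31 for all protein-coding genes tested. Levels of the KRAB-like members had a median of 1.33 CPM per kb and those of the others 2.67. The highest levels were those of Zfp703, with 24.3 CPM per kb in NM1 KO and 33.7 in WT, and Zfp36, with 21.8 in NM1 KO and 26.6 in WT, and the lowest was that of Zfp738, with 0.316 in NM1 KO and 0.183 in WT.

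Near-identical copies make some counts uncertain. Of the members, 40 shared more than 10% of their 50-base windows with another annotated gene, and 124 shared none. Zfp433 and Zfp991 shared 94.1% and 86.7%, and Zfp984, Zfp59, Zfp970 and Zfp58 shared between 50.2% and 54.6%. Zfp970, on chromosome 2, had 26.2, 12.4 and 25.4 CPM in NM1 KO against 30.0, 37.8 and 54.1 CPM in WT (-0.93 ± 0.33, adjusted p = 0.150), and was among the genes called under the GC and length offset. The 5 called members shared 0.25% of their windows at most.

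Of 12 listed genes that guard imprints or silence retroelements, 7 were members and 1 was called (Zfp445), which is 14.3% beside 4.25% of all genes. Their median log2 fold change was -0.066, beside -0.0021 over all genes. It was -0.24 with the GC and length offset and lay between -0.25 and 0.12 without each library in turn, the highest without NM1 KO replicate 2. Zfp57, the partner of Zfp445 in imprint maintenance, had 2.48, 4.40 and 5.32 CPM in NM1 KO against 4.25, 9.30 and 7.93 CPM in WT (-0.82 ± 0.38, adjusted p = 0.249), with overlapping ranges. Zfp568, which silences a placental Igf2 transcript in mouse embryos, had 10.04, 7.78 and 12.5 CPM in NM1 KO against 6.40, 7.45 and 6.49 CPM in WT (0.57 ± 0.21, adjusted p = 0.164), with ranges apart. Zfp809, which silences Moloney leukaemia virus, had 12.4, 6.65 and 14.4 CPM in NM1 KO against 9.61, 17.8 and 17.5 CPM in WT, with overlapping ranges. Zfp932, Zfp961 and Zfp661 had log2 fold changes of -0.24, -0.066 and -0.062, and the groups overlapped for each.

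Of the 10 listed genes with a role in fat cells, 0 passed by edgeR, DESeq2 or limma-voom and 0 stood at an unadjusted p under 0.05. Over all genes these shares were 4.25%, 14.2%, 10.4% and 23.7%, so a list of 10 says little. The median log2 fold change of these 10 was 0.14, but -0.0091 with the GC and length offset and -0.0048 without NM1 KO replicate 1. Without each of the other libraries it lay between 0.016 and 0.20. Zfp516, which supports the brown fat programme, had 38.4, 43.5 and 37.6 CPM in NM1 KO against 38.0, 31.2 and 35.2 CPM in WT (0.19 ± 0.12). Zfp521, which restrains adipocyte commitment, had 13.1, 19.7 and 15.9 CPM in NM1 KO against 17.05, 12.0 and 16.3 CPM in WT. Zfp467, which favours fat over bone differentiation, had 33.9, 47.3 and 31.2 CPM in NM1 KO against 52.9, 32.1 and 53.2 CPM in WT. These groups overlapped. Zfp638, a cofactor of C/EBP proteins in early adipogenesis, ranged most between NM1 KO libraries, with 72.3, 13.7 and 42.8 CPM in NM1 KO against 27.9, 26.3 and 31.8 CPM in WT (0.58 ± 0.51). Zfp407, Zfp217, Zfp69, Zfp395 and Zfp30 had log2 fold changes between -0.11 and 0.48, with adjusted p between 0.330 and 0.842.

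Of 13 listed genes of RNA and protein machinery, 12 were members and edgeR called 0. At an unadjusted p under 0.05 stood 2 higher (Zfp106 and Zfp91) and 1 lower (Zfp598), which is 25% beside 23.7% of all genes. DESeq2 called 2 and limma-voom 3, where they called 14.2% and 10.4% of all genes. Zfp36 had 69.6, 71.8 and 85.8 CPM in NM1 KO against 75.8, 110.1 and 90.7 CPM in WT (-0.28 ± 0.16). Zfp207, a spindle and kinetochore protein, had 130.3, 140.2 and 127 CPM in NM1 KO against 147, 151 and 152 CPM in WT (-0.18 ± 0.09, adjusted p = 0.280), with ranges apart. Zfp706, Zfp346, Zfp622, Zfp451, Zfp326 and Zfp330 lay between -0.18 and 0.18 on the log2 scale. Of 20 listed sequence-specific regulators, edgeR called 0. At an unadjusted p under 0.05 stood 1 higher (Zfp318) and 3 lower (Zfp335, Zfp703 and Zfp366), 20.0% of the list beside 23.7% of all genes. DESeq2 called 4 of the 20.

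The members within 10 Mb of Myo1c on chromosome 11 were Zfp3, Zfp207 and Zfp830. Zfp3 had 5.02, 5.55 and 4.88 CPM in NM1 KO against 5.44, 4.73 and 5.37 CPM in WT (-0.0066 ± 0.19), and Zfp830 had 15.4, 14.5 and 15.3 CPM in NM1 KO against 14.8, 13.6 and 14.7 CPM in WT (0.068 ± 0.13). Neither differed by more than the spread between replicates. Zfp692, the called member of chromosome 11, lies 17.3 Mb from Myo1c next to Zfp672, which had 16.8, 21.7 and 17.9 CPM in NM1 KO against 23.3, 25.3 and 30.8 CPM in WT (-0.49 ± 0.16, adjusted p = 0.122).

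Of the 29 listed co-repressor and heterochromatin partners of KRAB zinc finger proteins, 28 were tested and 1 was called, 3.57% beside 4.25% of all genes. Atf7ip, a cofactor that stabilizes SETDB1, rose to 86.9, 83.6 and 81.3 CPM in NM1 KO, against 64.5, 50.8 and 55.6 CPM in WT (0.56 ± 0.12, adjusted p = 0.0445), and was not called with upper-quartile size factors, with library totals alone or with the GC and length offset. At an unadjusted p under 0.05 stood 4 higher (Atf7ip, Dnmt3a, Cbx5 and Dnmt1) and 1 lower (Ehmt2), 17.9% of the 28 against 23.7% of all genes. The median of the list was 0.079, but -0.074 with the GC and length offset and -0.039 without NM1 KO replicate 1. Leaving out replicates 2 and 3 of NM1 KO in turn gave 0.20 and 0.023, and leaving out WT replicate 1 gave 0.042. The DNA methyltransferase gene Dnmt3a had 114, 97.9 and 83.4 CPM in NM1 KO against 80.8, 58.8 and 64.6 CPM in WT (0.53 ± 0.16, adjusted p = 0.113). Trim28 had 112, 123.1 and 117 CPM in NM1 KO against 129, 150 and 134 CPM in WT (-0.23 ± 0.10, adjusted p = 0.219), with ranges apart, and Setdb1 had 38.6, 41.6 and 39.2 CPM in NM1 KO against 41.4, 34.9 and 42.9 CPM in WT (0.0027 ± 0.12), with overlapping ranges. Cbx5, Dnmt1 and Ehmt2 had log2 fold changes of 0.28, 0.28 and -0.25 with adjusted p of 0.191, 0.204 and 0.193.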

How the data were processed

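RNA of visceral fat was sequenced after NEBNext Ultra II library preparation, per the labels' protocols. The submitters' processing notes name Trimmomatic 0.36, FastQC, HISAT2 2.0.4, SAMtools 0.1.19, HTSeq and the build GRCm38 (mm10). No source used here gives the strand setting or annotation of the counting. The authors deposited whole-number counts per Ensembl gene, 1 table per library and not normalized, with totals of 24677758 to 33537818 counts. Of 46603 identifiers, 46091 matched GENCODE M21, which gave names, positions and exonic sequence. GC content was that of a gene's longest transcript, and length was the total of all its exonic bases.

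The genotype in the labels set the groups. The test was that of edgeR 4.0.16 (R 4.3.3; filterByExpr, TMM, robust quasi-likelihood fit on genotype alone), two-sided, adjusted by Benjamini and Hochberg's method over all genes tested, at a threshold of 0.05. A log2 fold change is NM1 KO minus WT, and its SE was taken from the F statistic. Differences of single libraries used log2 of CPM plus 0.5. C2H2 fingers were counted by a letter pattern in the longest open reading frame of each gene's GENCODE coding transcripts. KRAB-like stretches were searched by pattern in all forward reading frames of those transcripts, short ones included. A match can therefore lie outside the longest frame. The members and lists were chosen with earlier results of these data known. Named were Zfp871, every called member, the 10 smallest p in each direction, the listed role genes, the smallest p of each chromosome with at least 8 members, members within 10 Mb of Myo1c, genes beside the minimum and partner genes with an unadjusted p under 0.05; the widest ratios, the largest groups' examples and the genes sharing most windows were named after their values were seen. Not every gene it selects is printed.

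Alternatives were upper-quartile and RLE size factors, plain library totals, no filter, at least 1 CPM in 3 libraries, non-robust dispersion, protein-coding genes only, the replicate number as a block, a GC and length offset (splines with 5 degrees of freedom) with and without that block, DESeq2 1.42.0, limma-voom (limma 3.58.1) with quality weights, and each library left out. Summaries used Python 3.11.15 and pandas 2.3.3, and figures matplotlib 3.10.9.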

Additional observations from a re-analysis of the deposited data

How the results depend on the processing

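The median log2 fold change of the members was 0.066 and lay between -0.024 and 0.069 with all libraries kept; without each library in turn it lay between -0.0062 and 0.13. Over all genes tested, 673 were called, against 2239 by DESeq2, 1648 by limma-voom with quality weights and 1 to 1654 without each library in turn. Of the members, DESeq2 called 11 higher and 10 lower and limma-voom 8 higher and 7 lower, where edgeR called 3 and 2; without each library these counts ran from 0 to 14 higher and from 0 to 4 lower. The lowest counts left out a library other than NM1 KO replicate 2. The log2 fold change of Zfp871 lay between 4.17 and 5.09 without each library; its call ended without NM1 KO replicate 3 (4.59) and without WT replicates 1 (4.70), 2 (4.43) and 3 (4.86). For the partner genes, whose alternatives were added after seeing the data, 0 were called with upper-quartile size factors, library totals alone, the replicate block, the GC and length offset and that offset with the replicate block, 2 by DESeq2, and 0 to 3 without each library. With the replicate block, 336 genes were called, 2 members higher and 1 lower. Same-numbered samples correlated at -0.060, -0.035 and 0.19 in their deviations from their group means. Of the 3 numbers, 1 (replicate 3) correlated best with its own. With 3 libraries a group, this check cannot decide whether the shared numbers pair the samples. Zfp507 and Zfp692 were not called with the block (adjusted p of 0.0846 and 0.0774) or with the GC and length offset with the block. Of 864 alternatives for other single genes, 37 gained a call, 26 lost one and 45 changed sign without a call. Of 216 for chromosome medians, 29 changed sign. The cause was not tested. Depths of 24677758 to 33537818 counts leave members near the minimum of 50 counts with wide errors, and 3 libraries a group limit every adjusted p.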
